A study of Drosophila melanogaster with 18 samples.

Results

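corto, betaTub97EF, Abca3 and Jon99Fi are 4 protein-coding genes of Drosophila melanogaster at which small RNA rose in embryos of 2 lines depleted of maternal Piwi. They were selected on the small RNA values of both lines against the control, in an earlier look at the same libraries, and are 4 of the 17773 genes of the small RNA table. Small RNA is therefore only described here. Their RNA, measured in separate libraries over 17994 genes and repeat elements, is not named in that choice and was tested. Earlier results of these data were known, however, and the genes piwi and prom, which ranked between these genes in small RNA, were left out. RNA of piwi and of prom passed the test in both lines, so the choice cannot be taken as blind to RNA. In short, corto, betaTub97EF and Abca3 RNA passed the test in neither line, and no RNA read of Jon99Fi was found.

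Whole embryos were collected at 25 °C from 0 to 1.5 h after laying, and 3 RNA and 3 small RNA libraries were made for each of 3 groups. The control, GFP-MatKD, had the maternal genotype 41550/MAT-Gal4, Piwi-MatKD_1 had 37483/MAT-Gal4 and Piwi-MatKD_2 had THU/MAT-Gal4, and the paternal genotype was w1118 in all 3. MAT-Gal4 drives a short hairpin RNA in the mother's germ line, so all groups, the control included, carry the driver and a hairpin, named for GFP or for Piwi. The growth protocol instead puts the hairpin in the mothers (100 females to a cage) and the driver in 20 males, so the direction of the cross is uncertain. Nothing states that libraries of a group came from separate collections, so p-values measure only the spread between these samples.

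Piwi is an Argonaute protein of the nucleus that is loaded with piRNAs, small RNAs that guide the silencing of transposable elements in the fly germ line. Piwi and piRNAs are laid down in the egg by the mother, and the embryo of this age lives almost wholly on maternal RNA, since most of its own genes are not yet transcribed. Small RNA that matches a gene can come from cutting of that gene's transcripts or from related copies elsewhere, and a count per gene does not tell these apart.

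The RNA libraries held from 8.5 to 73.0 M reads and the small RNA libraries from 1.88 to 3.38 M counts, where M stands for 1000000. RNA values are the authors' normalised reads, and small RNA values are the deposited expected counts or CPM, counts scaled to a library of 1000000. RNA of piwi itself was 8748 ± 715 normalised reads in the control (mean ± SD, n = 3). It was lower in both lines, at 355 ± 85.7 in Piwi-MatKD_1 (limma adjusted p 0.0159) and at 305 ± 299 in Piwi-MatKD_2 (adjusted p 0.00206), in the direction that the labels give. The 7 maternal marker genes summed to between 271718 and 310357 normalised reads in all 9 libraries, so maternal RNA was present throughout, and the 9 yolk and chorion genes of the adult female to at most 11.9, 3 of them at 0 throughout. Some features of the libraries stand beside later values. Genes named as rRNA took 10.9% and 5.90% of the reads in the Piwi-MatKD_2 RNA libraries of 21.6 and 8.5 M reads but at most 0.535% in the other 7. Summed over 13 genes, the early zygotic markers came to between 447 and 1865 in Piwi-MatKD_2 against 2568 to 5279 in the control and 2208 to 4195 in Piwi-MatKD_1. The 7 muscle genes summed to 1627 in Piwi-MatKD_1 replicate 2 against at most 67.5 elsewhere.

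In Release 6 of the fly genome, corto (FBgn0010313) lies on 3R from 5077779 to 5087072 and has 5 RefSeq transcripts. betaTub97EF (FBgn0003890), on 3R from 27967008 to 27988384, has 2 transcripts, and Jon99Fi (FBgn0039778), a short gene on 3R from 30488963 to 30489895, has 1. Abca3 (FBgn0031170) lies on X from 21292308 to 21306665 and has 3. Abca3 is the one of the 4 with other annotated genes inside it, namely mir-1007, mir-2535b and a pair of tyrosine tRNA genes, and each of those 4 genes was listed at 0 small RNA counts in all 9 libraries. Whether reads of a host and of a gene inside it were told apart in counting is not given in the sources used here.

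corto encodes a chromodomain protein that acts with both the Polycomb group, which keeps developmental genes off, and the trithorax group, which keeps them on. Its small RNA was 2.01, 1.47 and 3.57 CPM in the GFP-MatKD libraries, 40.5, 37.1 and 32.8 CPM in Piwi-MatKD_1 and 33.6, 39.5 and 45.4 CPM in Piwi-MatKD_2. All 6 Piwi-MatKD libraries lay above all 3 controls, and the lines overlapped each other. The fitted log2 fold changes were 3.92 (SE 0.35) and 4.02 (SE 0.36), and the lines differed by 0.10 (SE 0.29). Counts summed over a group were 15.4 times the control in Piwi-MatKD_1 and 17.2 times in Piwi-MatKD_2.

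betaTub97EF encodes a β-tubulin isotype, one of the subunits from which microtubules are built. Its small RNA was 1.64, 2.28 and 2.14 CPM in GFP-MatKD, 11.9, 12.3 and 11.9 CPM in Piwi-MatKD_1 and 6.18, 15.9 and 6.17 CPM in Piwi-MatKD_2. Piwi-MatKD_1 was even between libraries, whereas in Piwi-MatKD_2 replicate 2 stood well above the other two, and no library of either line overlapped the control. The log2 fold changes were 2.59 (SE 0.45) and 2.24 (SE 0.46). Summed counts were 6.15 and 4.57 times the control.

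Abca3 encodes an ABC transporter of subfamily A, a family of membrane pumps; in humans ABCA3 moves lipids into the lamellar bodies of lung cells. Its small RNA was 2.90, 0.884 and 1.98 CPM in GFP-MatKD, 5.48, 9.91 and 5.15 CPM in Piwi-MatKD_1 and 6.28, 10.4 and 8.59 CPM in Piwi-MatKD_2. The groups did not overlap in CPM, but the counts behind them were few: the lowest Piwi-MatKD_2 library held 8.79 expected counts and the highest control 9.04, from a deeper library. The log2 fold changes were 1.81 (SE 0.49) and 2.09 (SE 0.49), and summed counts were 3.64 and 4.41 times the control.

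Jon99Fi encodes a serine protease of the Jonah family, enzymes known from the larval and adult gut. Its small RNA was 0, 1 and 0 expected counts in GFP-MatKD, 19, 28.14 and 5 in Piwi-MatKD_1 and 5, 31 and 36 in Piwi-MatKD_2. It was nearly empty in the control and uneven within both lines, with the lowest library of each at 5 counts. Summed over a group, 52 and 72 counts stood against 1, depth-adjusted ratios of 58.7 and 104. Their 95% intervals, 10.1 to 2364 and 18.0 to 4156, cover counting error only and leave out the spread between libraries, so the size of the change is poorly fixed. Of the 7 Jon99Fi values above 0, 6 were whole numbers, whereas 0 of 9 were for each of the other 3 genes; values that are not whole arise when a read is divided between several matches.

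**Figure D1:**
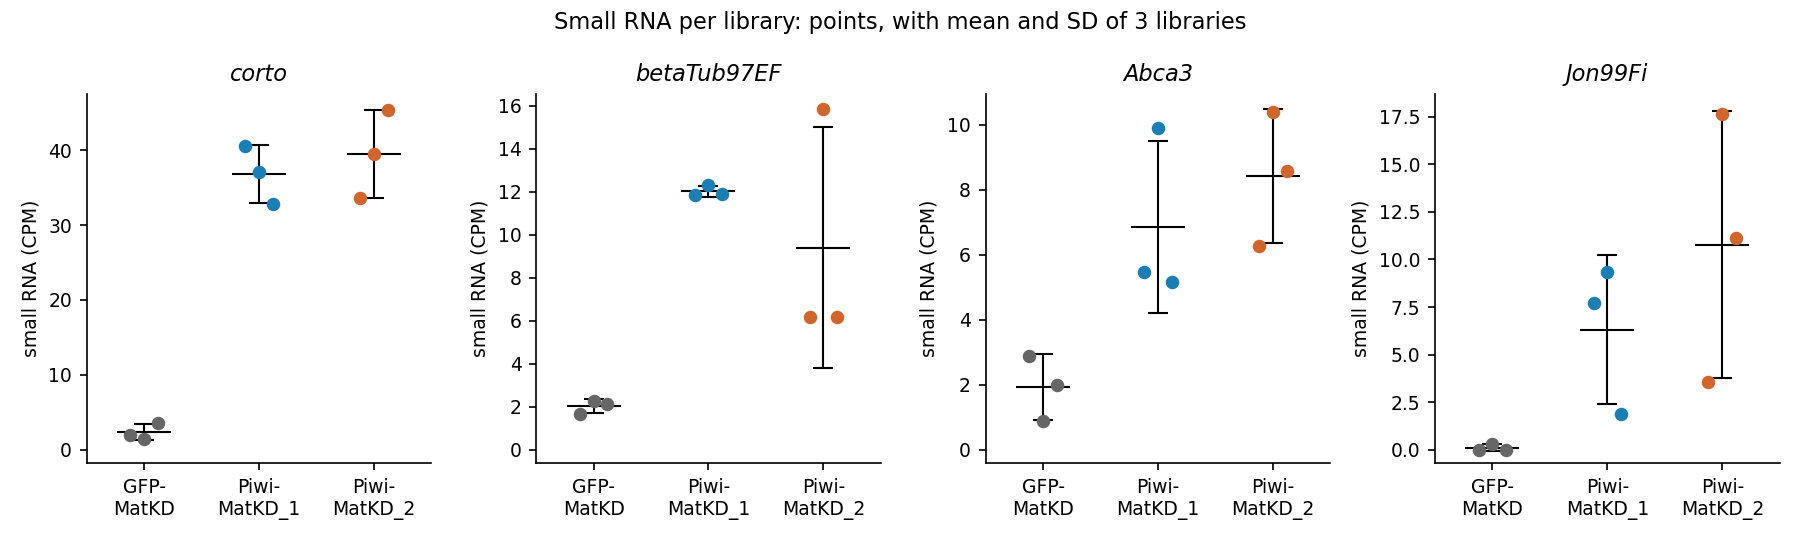
Small RNA of the 4 genes in CPM, 1 panel a gene, with a point for each library and a line with bars for the mean and SD of 3 libraries. In every panel all GFP-MatKD points lie below all Piwi-MatKD points, which for corto run from 32.8 to 45.4 CPM.

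Taken as a sum, the 4 genes held 6.93, 4.83 and 8.04 counts per 1000000 of the library total in GFP-MatKD, 60.5, 88.4 and 60.4 in Piwi-MatKD_1 and 37.0, 74.0 and 68.2 in Piwi-MatKD_2. They thus remained a very small part of the small RNA in every library. In the fit over the whole table, 1.84% (Piwi-MatKD_1) and 5.95% (Piwi-MatKD_2) of genes were called higher, and all 4 genes are among them by choice. Between the lines, where 5.39% of genes were called, their log2 differences ran from -0.35 for betaTub97EF to 0.79 for Jon99Fi, with SE of 0.41 and 0.64.

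Both lines called 24 of 2169 tested genes higher (1.11%), and ranking these by the smaller of both log2 fold changes put Jon99Fi first, piwi next, then corto, prom, betaTub97EF and Abca3. The 4 genes were chosen on these same values, so their high ranks are no result. Jon99Fi had enough counts for the fit only through its Piwi-MatKD libraries, and its rank rests on a control sum of 1 count. Abca3, the last of these at 1.81, was followed closely by CG7970 at 1.78, which went from 3.0 CPM in GFP-MatKD to 16.8 and 10.6. The lower ranks were mostly genes that began far higher and rose less, such as fz2, a Wnt receptor, from 341 CPM to 741 and 1285. Several of them held nearly the same values in all groups. Gyc76C and CG7110, for example, were at 762 and 763 CPM in GFP-MatKD, 1375 and 1374 in Piwi-MatKD_1 and 1957 and 1956 in Piwi-MatKD_2. Whether genes among the 24 hold reads in common was not tested, so they need not be separate signals. piwi itself, the target of the hairpins, rose from 9.33 CPM to 347 and 1171.

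The question for RNA was whether the transcripts of these genes changed as well. RNA was compared with limma on log2(normalised reads + 1) over 10767 features, and a call needed a Benjamini-Hochberg adjusted p under 0.05. None of the 3 tested genes was called in Piwi-MatKD_1, where 0.186% of all features were, in Piwi-MatKD_2, where 3.04% were, or between the lines, where 2.22% were. Without adjustment, 0, 0 and 2 of them were under 0.05. Those 2, Abca3 and betaTub97EF between the lines, ranked 417 and 1217 of 10767 features by p. At least 1217 features were thus under 0.05 in that contrast, so the 2 are not unusual. edgeR on the recovered whole reads also called 0, 0 and 0, while DESeq2 called 0, 0 and 1, which was Abca3 between the lines. Over all features DESeq2 called 63, 811 and 670. RNA came from whole embryos, so a change in a part of the embryo cannot be told from a change throughout it.

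corto RNA was 4470, 4960 and 4617 normalised reads in GFP-MatKD, 4028, 4130 and 5025 in Piwi-MatKD_1, and 6306, 4492 and 3739 in the Piwi-MatKD_2 libraries of 21.6, 8.5 and 73.0 M reads. The groups overlapped, and Piwi-MatKD_2 had both the highest and the lowest library. The log2 fold change was -0.10 in Piwi-MatKD_1 (95% interval -0.51 to 0.32, limma adjusted p 1.00) and 0.02 in Piwi-MatKD_2 (-0.40 to 0.43, adjusted p 0.991). As ratios the intervals run from 0.700 to 1.25 and from 0.757 to 1.35, so a change in corto RNA of the size seen in its small RNA lies outside both. Within Piwi-MatKD_2 corto fell in the order of the rRNA share, from 6306 normalised reads in the library with 10.9% to 3739 where it was 0.328%. Without both libraries rich in rRNA, only the library of 73.0 M reads is left, and the log2 fold change was then -0.32. The part of rRNA in the corto values was not tested.

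betaTub97EF had few RNA reads, with 11.3, 13.6 and 7.81 normalised reads in GFP-MatKD, 9.78, 13.0 and 2.87 in Piwi-MatKD_1 and 15.7, 19.1 and 23.6 in Piwi-MatKD_2. These rest on few whole reads, from 4 in Piwi-MatKD_1 replicate 3 up to 61 in the deepest Piwi-MatKD_2 library. All 3 Piwi-MatKD_2 libraries lay above the 6 others, while Piwi-MatKD_1 overlapped the control. The log2 fold changes were -0.48 (95% interval -1.63 to 0.67, limma adjusted p 1.00) and 0.79 (-0.36 to 1.95, adjusted p 0.554), and the lines differed by 1.27 (0.12 to 2.42, unadjusted p 0.0339, adjusted p 0.30). None passed, and the intervals still hold more than a doubling in Piwi-MatKD_2. Without Piwi-MatKD_1 replicate 3 the first of these was 0.08. In Piwi-MatKD_2 the value was lowest in the library richest in rRNA, the opposite order to corto.

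Abca3 RNA was 2504, 2454 and 2378 normalised reads in GFP-MatKD, 1811, 2018 and 2117 in Piwi-MatKD_1 and 4112, 3081 and 2414 in Piwi-MatKD_2. Every Piwi-MatKD_1 library lay below every control, and every Piwi-MatKD_2 library above every Piwi-MatKD_1 library, but Piwi-MatKD_2 overlapped the control. The log2 fold changes were -0.31 (95% interval -0.71 to 0.10, limma adjusted p 1.00) and 0.36 (-0.05 to 0.76, adjusted p 0.402). Between the lines Abca3 differed by 0.66 (0.26 to 1.06, unadjusted p 0.00475, adjusted p 0.123). That difference passed with DESeq2, at 0.69 (adjusted p 0.0126). It also passed in limma with the deepest Piwi-MatKD_2 library, of 73.0 M reads, left out, at 0.85 (adjusted p 0.0291). It passed under no other alternative. Abca3, like corto, followed the rRNA share within Piwi-MatKD_2. Without both libraries rich in rRNA, only the Piwi-MatKD_2 library of 73.0 M reads is left. The log2 fold change of Abca3 was then -0.02 against the control and 0.29 between the lines. The lower early zygotic sum in Piwi-MatKD_2 moved with the same contrasts, and the part of either in the Abca3 values was not tested.

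Jon99Fi had 0 RNA reads in each of the 9 libraries, which is 0 of 317.9 M reads and allows up to 0.00944 reads per 1000000 over all of them. Its RNA was thus not detectable at this depth in any group, including both Piwi-MatKD groups, whose small RNA libraries held 5 to 36 counts at the gene. The 8 gut digestive enzyme genes summed to at most 2.90 normalised reads in a library, with 3 of them at 0 in all 9.

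**Figure D2:**
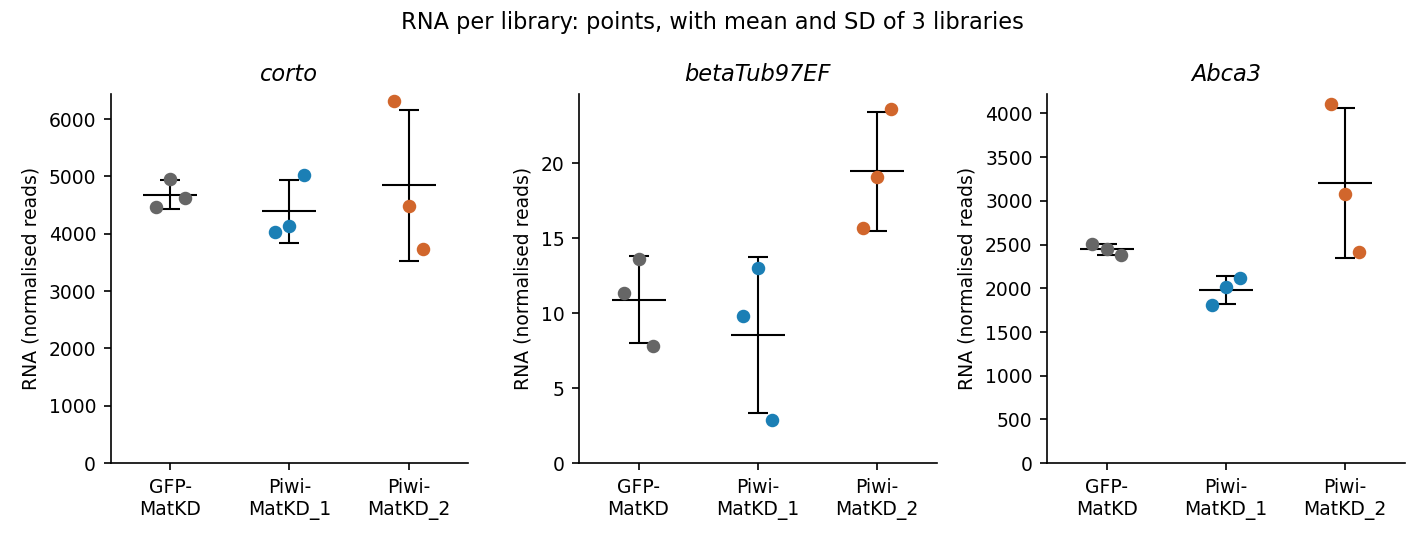
RNA of corto, betaTub97EF and Abca3 in the authors' normalised reads, with a point for each library and a line with bars for the mean and SD of 3 libraries; Jon99Fi, at 0 in all 9 libraries, is left out. For corto the groups overlap, and for Abca3 the Piwi-MatKD_2 points spread from 2414 to 4112.

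**Figure D3:**
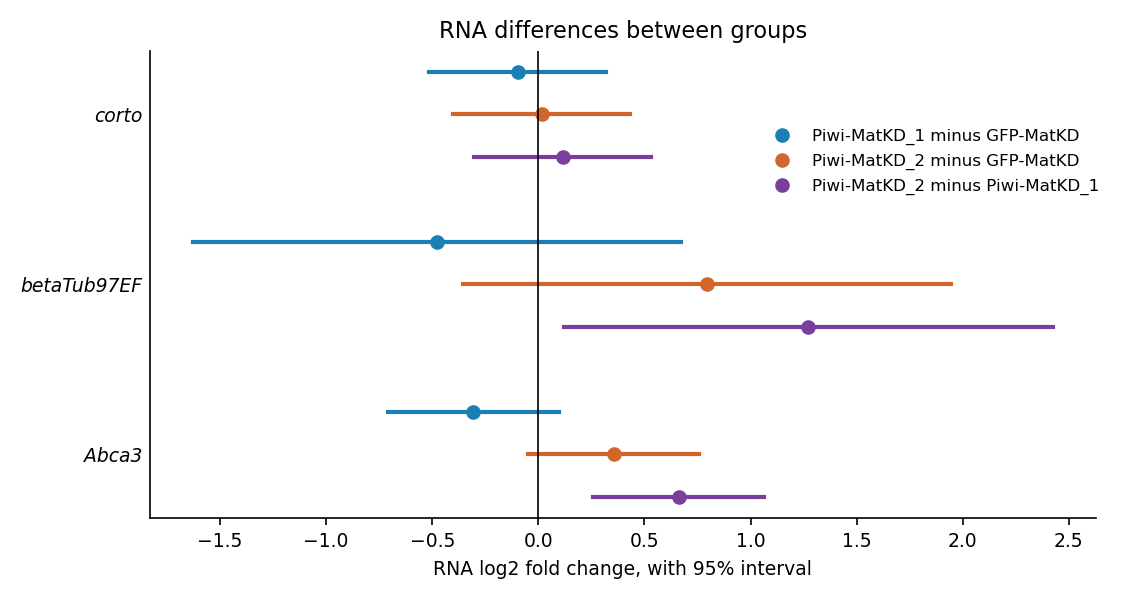
RNA log2 fold changes from limma with their 95% intervals for the 3 genes and the 3 contrasts. Against GFP-MatKD all 6 intervals include 0, and between the lines those of betaTub97EF (0.12 to 2.42) and Abca3 (0.26 to 1.06) lie above 0 before adjustment.

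Small RNA and RNA were then set side by side. Both lines are compared with the same 3 control libraries, so their values are not independent. corto had the largest fitted small RNA log2 fold change of the 3 genes with RNA reads in both lines, with RNA within 0.10 of the control on the log2 scale in both lines. For betaTub97EF and Abca3 small RNA was up by a like amount in both lines, while the RNA estimates had opposite signs in the lines, each with an interval that included 0. Of the 24 genes called higher in small RNA in both lines, 20 were tested in RNA. In Piwi-MatKD_1, where 0.186% of all features were called, 1 was higher, prom, a gene of the prominin family of membrane proteins, and 1 was lower, piwi. In Piwi-MatKD_2, where 3.04% were called, prom and IP3K1, an inositol trisphosphate kinase, were higher, at log2 fold changes of 3.82 and 2.60, and piwi and cpo, an RNA-binding protein, were lower, at -5.32 and -4.69.

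**Figure D4:**
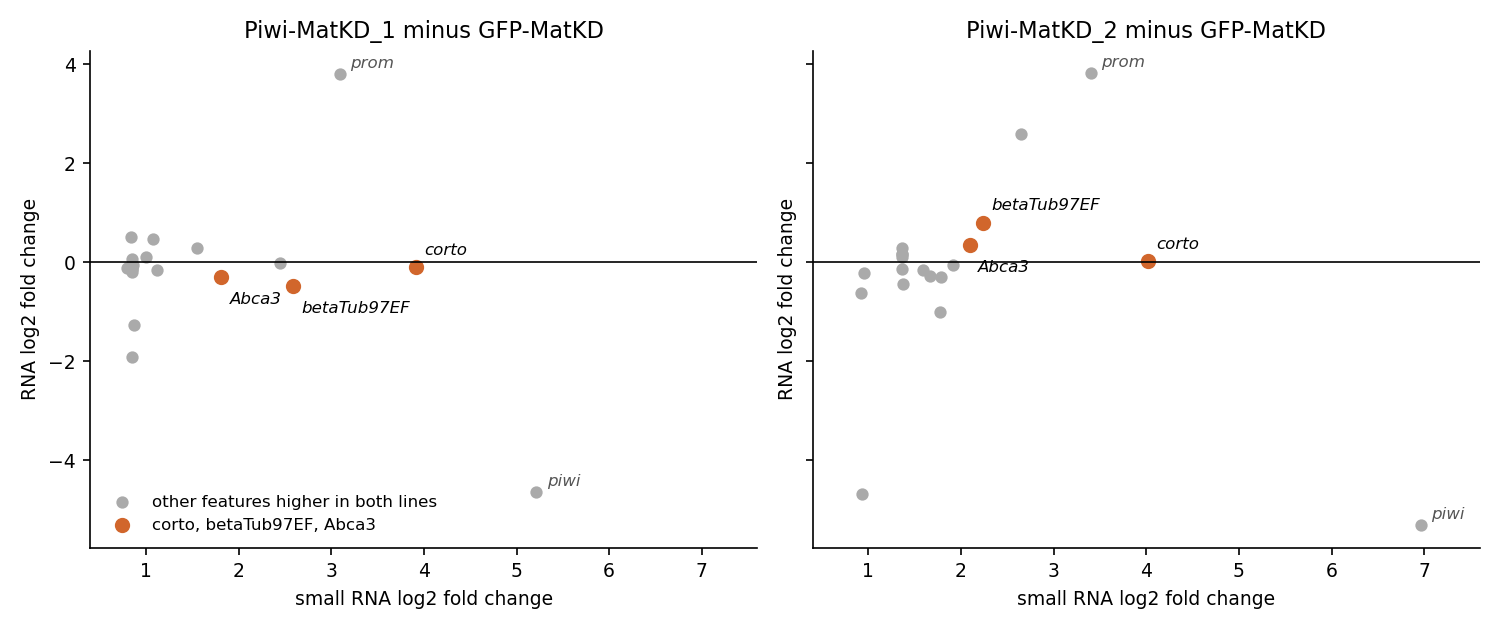
Log2 fold change of RNA against that of small RNA for the 20 tested genes called higher in small RNA in both lines, 1 panel a line; the small RNA values chose the points. corto, betaTub97EF and Abca3 lie between -0.48 and 0.79 in RNA, with prom above them and piwi below.

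Relatives and partners of each gene were read from lists. corto was set beside 33 Polycomb and trithorax group genes, all tested in RNA. limma called 0 of them in Piwi-MatKD_1 (0 without adjustment, 0 with edgeR and 0 with DESeq2). In Piwi-MatKD_2 it called 1 (4 without adjustment), ph-p, which encodes a subunit of the Polycomb repressive complex PRC1. Beside 3.04% of all features called in that contrast, 1 of 33 is near the background and is no result about the list. DESeq2 called 2, beside 811 over all features, and the other alternatives called 0 or 1. The list's median log2 fold changes were -0.06 and -0.08, against 0.01 and -0.04 over all features. By group, ph-p RNA was 326 ± 50.2, 376 ± 17.2 and 178 ± 16.6 normalised reads (SD, n = 3), and in Piwi-MatKD_2 it fell by 0.86 on the log2 scale (limma adjusted p 0.0347). That call held when the Piwi-MatKD_2 library of 21.6 M reads was left out but was lost without any one of the other 8, and over the alternatives the adjusted p ran from 2.42e-05 to 0.184; ph-p also has a close copy, ph-d, so its counts are uncertain. Trl, the GAGA factor, and E(z), the histone methyltransferase of PRC2, were not called, at 3306 and 2464 normalised reads in GFP-MatKD and log2 fold changes between -0.09 and 0.15 in either line.

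In small RNA, 10 of those 33 genes were tested. edgeR called 0 in Piwi-MatKD_1, where 7.51% of all genes were called, with 1 under 0.05 before adjustment and at most 1 called under any alternative. In Piwi-MatKD_2, where 12.5% were, it called 1, jing, a zinc finger protein linked to PRC2. There 3 were under 0.05 before adjustment, and the alternatives called from 0 to 2. By group, jing small RNA was 1886 ± 201, 1372 ± 249 and 3321 ± 487 CPM, a log2 fold change of 0.82 in Piwi-MatKD_2 (edgeR adjusted p 0.0131), and the call was lost without GFP-MatKD replicate 1 or 3 or without Piwi-MatKD_2 replicate 1 or 2 (values of 0.72 to 0.84). The jing call was also lost with no filter on low counts, at 0.63 (edgeR adjusted p 0.0645). The RNA log2 fold change of jing in Piwi-MatKD_2 was -0.04.

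betaTub97EF was set beside 9 other tubulin genes. Of these 7 were tested in RNA and 0 were called in either line or between the lines, also with edgeR and DESeq2, and 0 before adjustment. The list's medians were 0.13 (Piwi-MatKD_1) and 0.04 (Piwi-MatKD_2). Several of these genes were well covered in the control, with alphaTub84B at 47045, betaTub56D at 47831 and alphaTub67C, the maternal α-tubulin, at 18020 normalised reads. In small RNA none of the 9 had enough counts to be tested, and the highest value in any library was 7.43 expected counts, for betaTub56D, against 37.18 for betaTub97EF.

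Abca3 was set beside 7 genes of its subfamily. Of the 6 tested in RNA limma called 0 in both lines, against 0.186% and 3.04% of all features, with 1 in each before adjustment; edgeR called 0, and DESeq2 called 0 and 1, against 63 and 811 over all features. The list's medians were -0.21 and 0.14. Between the lines limma called 0 (2 before adjustment), against 2.22% of all features, and DESeq2 2, against 670 over all features. Before adjustment at least 1217 of 10767 features were under 0.05 in limma in that contrast. In small RNA 2 were tested, and CG1801, the neighbour of Abca3 on X, fell in Piwi-MatKD_1, where 7.51% of all genes were called, from 85.5 ± 28.2 CPM to 35.5 ± 4.71 (log2 -1.27, edgeR adjusted p 0.0186), a call lost without GFP-MatKD replicate 1 or 2 or Piwi-MatKD_1 replicate 1 or 3 (values of -0.98 to -1.34). In Piwi-MatKD_2 it was 77.9 ± 10.6 CPM (log2 -0.14, adjusted p 0.837). ldd, the other, was at 4.85, 3.30 and 4.27 CPM.

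Jon99Fi was set beside 15 other Jonah genes. None was tested in either assay, since none had enough reads: in RNA the highest value in any library was 1.45 normalised reads and 8 of the 15 were at 0 throughout. Their small RNA came to 15.48 expected counts over all genes and libraries, against 125.14 for Jon99Fi by itself. Jon99Fii, the closest neighbour of the family at 1034 bp, had 0.14 of a count in 1 library.

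The 2 annotated genes on either side of each of the 4 were examined for small RNA. Counts per gene leave out reads between genes, so they cannot show whether small RNA extends past a gene. Around corto the nearest, CG43131, lies 21605 bp away and had at most 4.5 counts in a library. CG4849 ends 49 bp from betaTub97EF and had at most 4 counts, against 5.11 to 37.18 in betaTub97EF; its RNA, at 3311, 3320 and 2848 normalised reads by group, was not called. CG1494 overlaps Abca3 by 151 bp, and its small RNA was 8.35, 7.37 and 4.47 counts in GFP-MatKD, 5.11, 2.6 and 5.79 in Piwi-MatKD_1 and 1.41, 1.03 and 1.79 in Piwi-MatKD_2. CG1494 thus had its lowest values in Piwi-MatKD_2, where Abca3 was high; it had too few counts for a test.

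PH4alphaSG2, a prolyl 4-hydroxylase gene 178 bp from Jon99Fi, had 0, 1 and 0.5 counts in GFP-MatKD, 3, 8 and 3 in Piwi-MatKD_1 and 0, 3 and 5.17 in Piwi-MatKD_2. Its Piwi-MatKD_1 libraries lay above the control and its Piwi-MatKD_2 libraries overlapped it, all at a few counts, and its RNA was at most 0.868 normalised reads. On the other side, PH4alphaEFB, 3163 bp away, was not called in small RNA, at log2 fold changes of -0.15 (edgeR adjusted p 0.721) and 0.31 (adjusted p 0.525). Among the 16 neighbours, 9 were tested in RNA, and limma called 0 in Piwi-MatKD_1 (0.186% of all features) and 1 in Piwi-MatKD_2 (3.04%), Rpt6, an ATPase subunit of the proteasome 9386 bp from Abca3. Rpt6 RNA was 8422 ± 611, 8029 ± 254 and 18468 ± 988 normalised reads in the 3 groups, a log2 fold change of 1.13 in Piwi-MatKD_2 (limma adjusted p 5.86e-04); its small RNA was at most 1 count in a library.

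As a description of pattern, the features whose log2 level ran most like each gene's over the 9 libraries were found by Pearson's r. All points share 3 groups, so a step between groups is enough for a high r. corto, betaTub97EF, Abca3 and Jon99Fi were chosen for such a step in small RNA of these same libraries. Their closeness to each other in small RNA follows from that choice and is no result. In small RNA, corto was closest to piwi (r = 0.945), CG7970 (0.919) and Abca3 (0.912), out of 2168 others. betaTub97EF was closest to CG7970 (0.967), corto (0.910) and RpL35A (0.883), and Jon99Fi to piwi (0.940), Abca3 (0.897) and corto (0.897). For Abca3 they were corto (0.912), piwi (0.903) and CG12075 (0.902).

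Small RNA chose the genes, so the RNA values below are no contrast between the assays. In RNA the closest features, out of 10766 others, were none of the chosen genes. For corto they were aqz (0.990), sqd (0.985) and the long non-coding RNA CR43958 (0.985). sqd, which encodes an hnRNP protein that localises maternal transcripts, had 38559 ± 1171, 36979 ± 6020 and 40831 ± 11697 normalised reads, with its widest spread in Piwi-MatKD_2, as corto had. Abca3 was closest to Nct (0.979), a subunit of γ-secretase, Tango1 (0.973) and CG14764 (0.972). betaTub97EF was closest to CG14932 (0.934), Hsp70Bb (0.909), one of several near-identical heat shock genes whose reads cannot be placed with certainty, and Gpat4 (0.895).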

How the data were processed

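The genes and lists were chosen with earlier results of these data known. Per the submitters' processing notes, cutadapt, Bowtie 1.2.2, featureCounts and build BDGP6 were used, with no role or order given. The RNA table as deposited holds a signal per feature: in each library 100% of values were whole multiples of 1 step (within 0.01 reads), so the authors divided whole reads by 1 factor per library (0.262 to 2.58). For small RNA the authors deposited expected counts, 20.1% to 42.7% of a library's entries not whole, and these were rounded for fitting.

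The test for RNA was limma 3.58.1 (linear fit, moderated with a trend) on log2(value + 1), for features of at least 1 in at least 3 libraries. Recovered reads were also tested with edgeR, which called 19, 325 and 247 features in Piwi-MatKD_1, Piwi-MatKD_2 and between the lines, and with DESeq2 1.42.0. Small RNA was fitted with edgeR 4.0.16 (quasi-likelihood, TMM, filterByExpr), and CPM uses its TMM factors. All 9 libraries of an assay shared 1 spread, with group as the only term. Adjustment was Benjamini-Hochberg over all features. A library's smallest detectable level in small RNA was taken as 3 counts, or 0.888 to 1.60 per 1000000 of the library total. That scale leaves out the TMM factors, so it is not the CPM scale of the values above.

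Columns were matched through the labels; the Piwi-MatKD_2 RNA columns could be matched to their group alone and are named by depth. No 2 libraries of a group were identical. Gene positions came from a RefSeq table of Release 6 plus ISO1 MT. Named genes were the 4 genes, piwi, the 2 nearest genes on either side, the 3 most alike features, up to 5 called genes per list and the genes next to the last rank; other list genes, and those named among the 24, were picked for their role after values were seen. betaTub60D, calypso and nos were listed but not matched. The scripts were tested on simulated data.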

Additional observations from a re-analysis of the deposited data

Results flagged for a closer look

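Some listed or neighbouring genes differed between the Piwi-MatKD lines themselves, by the contrast of Piwi-MatKD_2 with Piwi-MatKD_1 in the same fits, in which limma called 2.22% of RNA features and edgeR 5.39% of small RNA genes. None of the 4 genes was among them. RNA of Rpt6, 9386 bp from Abca3, was higher, with a log2 difference of 1.2 (SE 0.10, limma adjusted p 5.20e-04), and the call held without any single library, at 1.16 to 1.24. RNA of ph-p, of the Polycomb list, differed by -1.08 (SE 0.18, limma adjusted p 0.0160). The call was lost without Piwi-MatKD_1 replicate 1 or replicate 2, with an adjusted p of up to 0.0801. It was also lost with those 2 groups alone in the fit (adjusted p 0.0895). Without both Piwi-MatKD_2 libraries rich in rRNA, which leaves only its library of 73.0 M reads, the difference was -1.05.

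Small RNA of ph-p differed in the same direction, by -2.09 (SE 0.51, edgeR adjusted p 0.0367), from 24.9 ± 11.1 CPM in Piwi-MatKD_1 to 5.74 ± 0.632 in Piwi-MatKD_2. That call was lost without Piwi-MatKD_1 replicate 2 or 3, or without any 1 Piwi-MatKD_2 replicate, at -1.75 to -2.48. Small RNA of jing differed by 1.27 (SE 0.18, edgeR adjusted p 0.00231) and passed without any single library, at 1.05 to 1.38. Small RNA of CG1801, beside Abca3, differed by 1.13 (SE 0.27, edgeR adjusted p 0.0342), but it passed only with GFP-MatKD replicate 2 or Piwi-MatKD_2 replicate 3 left out and was lost without any of the other 7, with an adjusted p of up to 0.244; it was also lost with library totals (adjusted p 0.122) and with those 2 groups alone (adjusted p 0.0811). Groups of 3 libraries are too small to look for single outlying samples.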

How the results depend on the processing

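RNA of corto, betaTub97EF and Abca3 was recomputed 174 times over 9 results: 162 kept direction and side of the threshold, 10 changed sign and 2 passed where they had not. The cause was not tested. With libraries left out singly, betaTub97EF in Piwi-MatKD_1 ran from -0.85 to 0.079 (log2), corto in Piwi-MatKD_2 from -0.19 to 0.19, corto between the lines from -0.094 to 0.28 and Abca3 between the lines from 0.46 to 0.85. corto in Piwi-MatKD_2 was -0.14 with library totals, -0.044 with quantile normalisation and -0.32 without both rRNA-rich libraries. That last alternative was chosen after seeing the data and leaves only the Piwi-MatKD_2 library of 73.0 M reads. Between the lines corto was -0.050 with library totals and -0.23 without both rRNA-rich libraries. Abca3 in Piwi-MatKD_2 was -0.018 without them, and between the lines 0.69 with DESeq2. CG1801 changed sign without 1 library, with small RNA in Piwi-MatKD_2 from -0.32 to 0.18 and RNA in Piwi-MatKD_1 from -0.090 to 0.53. Of 166 small RNA values of the 4 genes, 7 moved by more than the SE of the fitted value, among them corto between the lines, from 0.10 to -0.26 with library totals. Abca3 between the lines also changed sign with library totals, from 0.28 to -0.12, within its SE of 0.44. None against GFP-MatKD fell to 0 or below, but those contrasts chose the genes, so this is no support for the rise.

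Counts over all features depended more on the settings. The RNA calls were 20 in Piwi-MatKD_1 (3 with the replicate block to 63 with DESeq2), 327 in Piwi-MatKD_2 (116 without 1 library to 811 with DESeq2) and 239 between the lines (61 with those 2 groups alone to 670 with DESeq2). In small RNA they were 163 (47 to 295), 272 (110 to 408) and 117 (42 to 246). Replicate numbers showed no sign of pairing the RNA libraries of GFP-MatKD and Piwi-MatKD_1. Deviations of same-numbered libraries correlated there at a mean of -0.22, and 0 of 6 libraries correlated best with their own number. With the replicate block RNA of corto, betaTub97EF and Abca3 in Piwi-MatKD_1 was -0.10, -0.48 and -0.31, as without it. A block in a balanced design leaves these folds as they are. In small RNA the mean correlations were 0.09 to 0.26, and single pairs ran from -0.17 to 0.51. There 3 and 3 of 6 libraries correlated best with their own number against GFP-MatKD, and 5 of 6 between the lines. The block took small RNA calls from 163 to 295, from 272 to 294 and from 117 to 246. These values do not settle whether small RNA libraries were paired by number, and the main small RNA fit had no term for such a pairing. Depth limits betaTub97EF in RNA (4 to 61 reads) and Jon99Fi, with 1 small RNA count in the control.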
